A study of Homo sapiens with 3 samples.

Results

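The genes that encode proteins known to bind obscurin, together with its closest relative OBSL1, were followed on arrays that compared breast epithelial cells with and without an obscurin shRNA. The members were 9 genes: OBSL1, TTN, MYOM1, MYBPC1, ANK1, ANK2, RANBP9, RHOA and RHOQ. Of the 45220 features on each array, 29 were annotated to exactly 1 of these symbols. Of these, 27 had a value on at least 2 of the 3 arrays and were kept, and they covered 8 of the 9 genes.

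Obscurin is a giant protein of striated muscle that links the contractile apparatus to the membranes around it. Its immunoglobulin-like domains bind titin, myomesin and slow myosin-binding protein C, its tail binds ankyrins, and its RhoGEF domain, which loads small GTPases with GTP, acts on RHOA and RHOQ. RHOA drives actin stress fibre formation and myosin contractility in nearly every cell, epithelium included, whereas titin, myomesin and myosin-binding protein C are best known as sarcomere proteins.

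The cells were MCF10A, an immortalised, non-tumorigenic line of human breast epithelium. Both cultures were stably transfected, carried their shRNA under puromycin at 1.5 ug/mL, and received 150 uM etoposide, which traps topoisomerase II on broken DNA, at 70% confluency for 48 hours. On each of 3 arrays, called independent replicates in the labels, cDNA of cells with obscurin shRNA was coupled to Cy5 and cDNA of cells with a scrambled control shRNA to Cy3. The labels name 1 shRNA of each kind and do not say whether the lines were clones or pools. Dyes were never exchanged, so a dye effect and the shRNA cannot be told apart, and no culture without etoposide was compared. Nothing in the labels says whether the replicates were separate cultures, so p-values measure only the spread between these arrays.

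Each value is a log2 ratio of both channels. No source says which channel was divided by which; obscurin shRNA over control shRNA is the likely form, as the labels list the former as channel 1. Were it the reverse, every sign below would turn, and a gene given as low would be higher with obscurin shRNA. A log2 ratio carries no expression level, so whether a gene was expressed in these cells, and the labelled cell type, could not be checked from its value. The deposited ratios were not centred on 0: the median over all features (called the array median below) was 1.49, 1.28 and 1.39 on arrays 1, 2 and 3, and the most repeated value was 2.06, 1.97 and 2.00. Values below are log2 ratios minus the array median unless another zero point is named. On this scale the most repeated value lies at 0.57, 0.69 and 0.61.

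The annotation of single features was not clearly borne out by the values of repeated transcripts. For 85 transcripts with at least 10 kept features each, the median SD between features of one transcript was 1.55, 1.72 and 1.69 on arrays 1, 2 and 3, against an SD of 1.93, 2.02 and 1.98 over all features. When each value was read 170 features earlier, a displacement at which an earlier look at these data had found better agreement on parts of the arrays, the median SD was 1.52, 1.59 and 1.70. The displaced place thus had the lower median SD on arrays 1 and 2 and the own place on array 3. These values do not settle which place is right. The SD over all features is not a like measure, as it includes 35, 51 and 39 features at the array's highest value. The displaced SDs also rest on other numbers of values, for RHOA 10, 7 and 10 against 10, 11 and 8. Gene names below follow the annotation as given, at the feature's own place.

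RHOA was the member with the most features and had values low on every array. The mean over its kept features was -1.68, -1.51 and -3.13 on arrays 1, 2 and 3, or -2.25, -2.20 and -3.74 relative to the most repeated value. The mean over arrays was -2.11 ± 0.48 (SE, n = 3 arrays, 95% interval -3.48 to -0.73), and it missed the threshold of 0.05 (limma adjusted p = 0.125, unadjusted p = 0.0137). The mean was below the array median on 3 of 3 arrays, and 15.0% of the 16898 genes tested had a lower mean.

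The 11 kept RHOA features were spread widely on arrays 1 and 2 and narrowly on array 3, where 3 had no value. Over the 8 features with a value on array 3, the SD was 1.34, 0.71 and 0.44 on arrays 1, 2 and 3. Over all 11 features it was 1.70 on array 2, so the spread there depended on which features were counted. On array 1 the 10 features with a value ran from -3.30 through a median of -2.18 to 0.71. On array 2 the 11 values ran from -2.89 through -2.46 to 2.07. On array 3 the 8 values ran from -3.85 through -3.01 to -2.58, so that all of them lay well below the array median and none near the most repeated value.

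The 3 RHOA features without a value on array 3 were the highest on array 2, though not on array 1, and this missingness entered the gene mean. Those 3 features averaged -0.78 on array 1 and 0.84 on array 2. The 8 features with a value on array 3 averaged -2.06 on array 1, where 6 of 7 values were below the array median, and -2.40 on array 2, where 8 of 8 were. With only features measured on all 3 arrays, RHOA had 7 features, a mean of -2.51 and an adjusted p of 0.0408 by limma, past the threshold. In that setting 10.0% of 11809 genes passed on the lower side and 0.0339% on the upper.

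**Figure D1:**
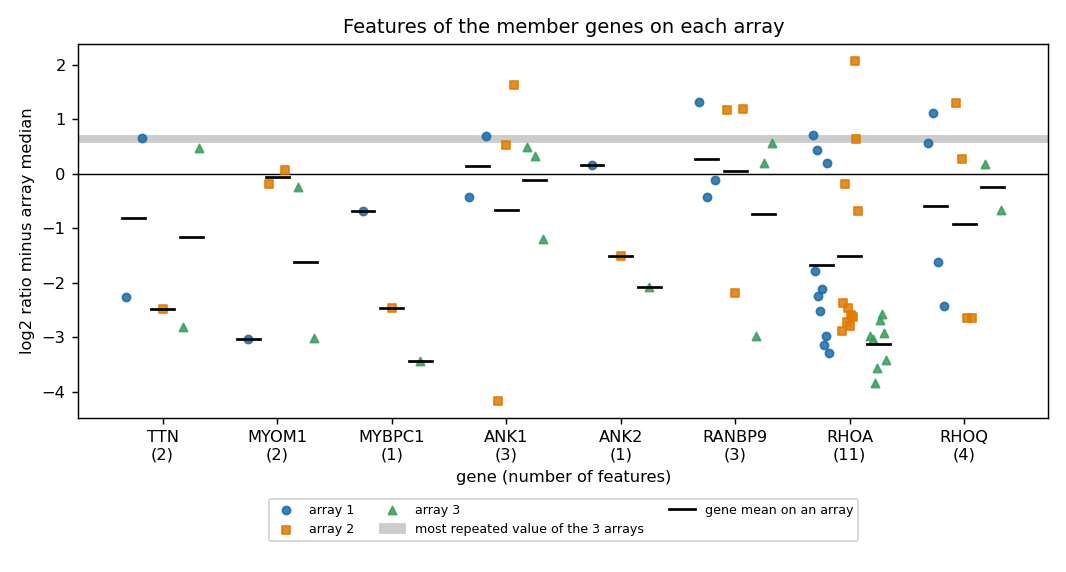
Log2 ratio minus array median (y axis) for each kept feature of the 8 genes (x axis, number of features in brackets), with 1 colour and marker per array and a black bar for the gene mean on an array. The grey band spans the most repeated values of the 3 arrays, between 0.57 and 0.69; RHOA features on array 3 all sit between -3.85 and -2.58, while most other genes have features on both sides of 0.

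Single RHOA features differed in how steady they were between arrays. Feature 24810 had -3.16, -2.64 and -2.92 on arrays 1, 2 and 3, feature 15718 had -2.52, -2.79 and -2.69, and feature 24380 had -2.12, -2.59 and -2.58. These 3 were low on every array and varied little. Feature 14263 had -2.25, -2.73 and -3.85, and feature 2630 had -1.78, -2.38 and -3.04. Feature 1396 was above the array median on array 1 only, with 0.71, -2.89 and -2.99. Feature 45195 had -3.30, -0.68 and -3.42, the middle value being that of array 2. Feature 15617 had -2.46 on array 2 and -3.57 on array 3. The remaining 3 lacked array 3: feature 34001 went from -2.98 on array 1 to 2.07 on array 2, feature 12080 had 0.44 and -0.18, and feature 37699 had 0.19 and 0.64. A twelfth feature, 34908, had a value on array 2 alone, -1.59, and was left out.

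Tested feature by feature, no RHOA feature passed with the array median as zero, the smallest adjusted p by limma being 0.0585 for features 24810 and 15718. At that zero point 0% of the 27303 named features passed in either direction. With each array's most repeated value as zero, 5 of the 11 RHOA features passed on the lower side, among them feature 24810 with a mean of -3.53 and an adjusted p of 0.0302. At this zero point 8.49% of all named features passed on the lower side and 0.00733% on the upper. RHOA features share the RNA hybridised to an array and are not replicates of it. Their probe sequences were not used here, so features that carry the same probe, or that bind RNA of the closely similar RHOB or RHOC, cannot be told from the others.

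The spread of RHOA features was set beside that of other transcripts measured by many features. On array 3 its SD over features was 0.44, the lowest of the 85 transcripts with at least 10 kept features, whose median was 1.69. Its mean was the 2nd lowest of the 85. ERBB2, a receptor tyrosine kinase that is no member, lay beside it on array 3, with an SD of 0.46 and a mean of -3.16. On arrays 1 and 2 the SD of RHOA, 1.54 and 1.70, was close to the medians of 1.55 and 1.72. Its mean ranked 12 and 20 from the bottom there. Over only the 8 RHOA features with a value on array 3, the SD was 1.34 on array 1 and 0.71 on array 2. The low SD was thus not clearly particular to array 3. The comparison is a description chosen after the values were seen, and the RHOA value on array 3 rests on 8 features.

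**Figure D2:**
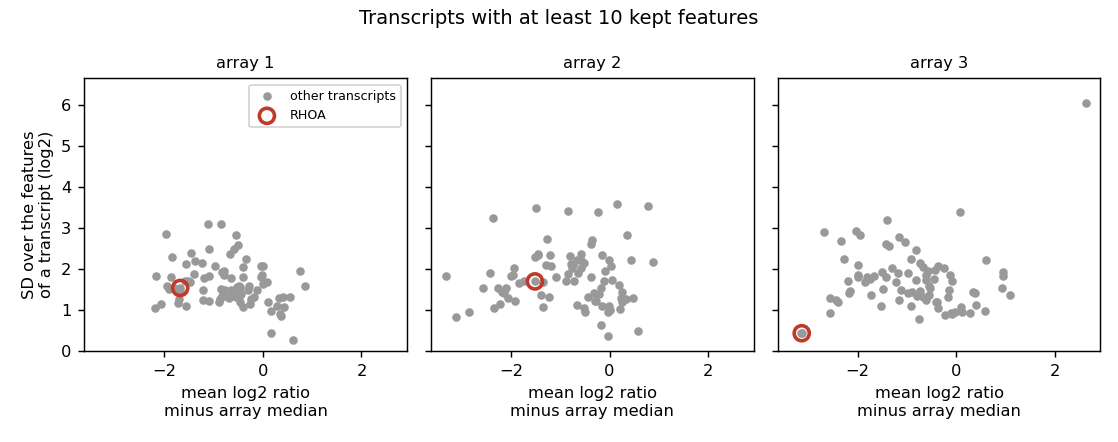
Mean log2 ratio minus array median (x axis) and SD over features in log2 units (y axis) for 85 transcripts with at least 10 kept features, 1 panel per array, with RHOA ringed in red. RHOA lies among the other transcripts on arrays 1 and 2, with values of 10 and 11 features. It lies at the lowest SD, 0.44, on array 3, with values of 8 features. The grey point within its ring there is ERBB2.

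The RHOA values were also read at the displaced position. Taken 170 features earlier, the RHOA mean was -1.71, -1.01 and -0.93 on arrays 1, 2 and 3, with an SD over features of 1.60, 1.92 and 1.83. At that place the values on array 3 were on both sides of the array median, unlike those at the own place. The 8 features with a value on array 3 came from the beginning to the end of the feature list, from feature 1396 to feature 45195.

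**Figure D3:**
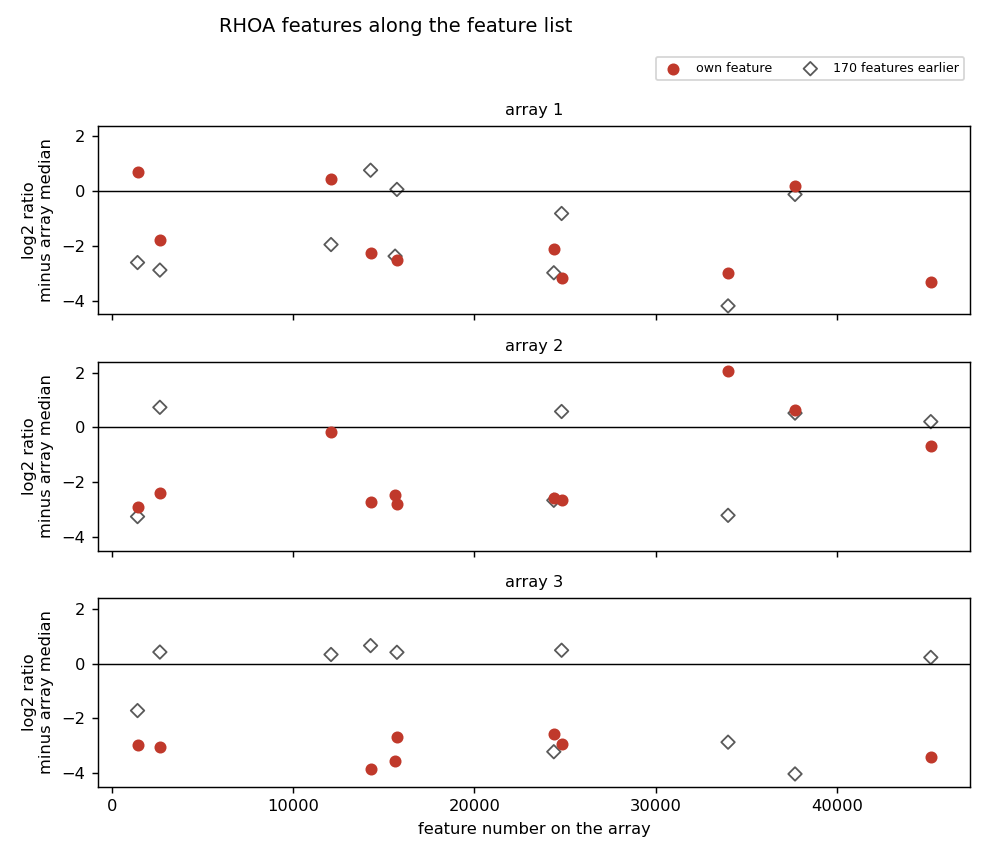
Log2 ratio minus array median (y axis) of the RHOA features by feature number (x axis), 1 panel per array; red points are the value at the feature's own place and open diamonds the value 170 features earlier. On array 3 the red points stay between -3.85 and -2.58 along the list, while the diamonds fall on both sides of 0.

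RHOQ, also called TC10, a plasma membrane GTPase of the CDC42 branch, stayed closer to the array median than RHOA. Its gene mean was -0.60, -0.93 and -0.24 on arrays 1, 2 and 3, or -1.18, -1.62 and -0.85 relative to the most repeated value. All 3 arrays were below the array median, array 2 the most. The mean of -0.59 ± 0.34 (SE, n = 3 arrays, 95% interval -1.55 to 0.37) missed the threshold (limma adjusted p = 0.389), and 48.1% of genes had a lower mean. Without array 2 it was -0.25, where only features 17122 and 17869 were left. The 4 features fell on either side of the array median. Feature 6682 had 0.56 and 1.30 on arrays 1 and 2, and feature 17122 had 1.11, 0.27 and 0.18 on arrays 1, 2 and 3. Both were above the array median wherever measured. Feature 17869 had -1.63, -2.65 and -0.66, and feature 33501 had -2.44 and -2.64 on arrays 1 and 2. Both of these were below it wherever measured.

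TTN encodes titin, the giant spring of the sarcomere, whose domains at the Z-disc bind obscurin. Its 2 features are annotated to different transcripts and lay far apart. Feature 16972, annotated to NM_133379, the transcript of the short isoform novex-3, had -2.27, -2.49 and -2.81 on arrays 1, 2 and 3. Feature 29278, annotated to NM_133378, a full-length skeletal muscle transcript, had 0.65 on array 1, no value on array 2 and 0.47 on array 3. Feature 16972, called the novex-3 feature below after its annotation only, was thus low on 3 of 3 arrays. The other feature was above the array median on both arrays that measured it, with no overlap. Probe sequences were not used, so whether these features measure different isoforms was not tested. Features of ANK1 annotated to the same transcript also lay far apart, from -4.17 to 1.63 on array 2.

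The novex-3 feature had a mean of -2.52 ± 0.30 (SE, n = 3 arrays), with a limma adjusted p of 0.0585 over named features. With the most repeated value as zero it passed, at a mean of -3.15 and an adjusted p of 0.0302. So did 8.49% of all named features on the lower side. The gene mean of TTN was -0.81, -2.49 and -1.17 on arrays 1, 2 and 3, where the value on array 2 is that of the novex-3 feature alone, or -1.38, -3.18 and -1.78 relative to the most repeated value. It averaged -1.49 ± 0.48 (SE, 95% interval -2.86 to -0.12, limma adjusted p = 0.211, unadjusted p = 0.0394). The mean ran from -2.65 without array 1, where the novex-3 feature alone was left, to -0.99 without array 2, where both features were. With features on all 3 arrays only, TTN was the novex-3 feature alone and passed (adjusted p = 0.0377). In that setting 10.0% of 11809 genes passed on the lower side. Read 170 features earlier, the TTN mean was 0.55, above the array medians.

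By the distance between gene means over the 3 arrays, the genes most like TTN were EIF3C, CDK13 and C2orf74-DT, with root mean square differences of 0.03, 0.05 and 0.07 log2 units. Of 12402 other genes with values on all arrays, 216 lay within 0.5 of TTN, so this likeness over 3 arrays is not rare.

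The M-band and thick-filament partners differed between arrays. MYOM1, myomesin, which crosslinks thick filaments at the M-band and binds obscurin there, had gene means of -3.03, -0.06 and -1.63 on arrays 1, 2 and 3, or -3.60, -0.75 and -2.24 relative to the most repeated value. Array 1 was low and array 2 at the array median. Feature 9770 had -3.03, -0.19 and -0.25, so that array 1 alone was low, and feature 15159 had 0.06 on array 2 and -3.01 on array 3. The mean was -1.57 ± 0.69 (SE, n = 3 arrays, 95% interval -3.55 to 0.40) and missed the threshold (limma adjusted p = 0.312). It was -0.85 without array 1. MYBPC1, slow myosin-binding protein C, was measured by 1 feature at -0.69, -2.48 and -3.45, or -1.27, -3.17 and -4.05 relative to the most repeated value. All 3 arrays were below the array median, array 1 the least. Its mean of -2.21 ± 0.66 (SE, 95% interval -4.09 to -0.33) was the lowest of the 8 genes and missed the threshold (limma adjusted p = 0.186, unadjusted p = 0.0316).

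The ankyrins are adaptors that tie membrane proteins to the spectrin skeleton, and in muscle they bind obscurin at internal membranes. ANK1 had gene means of 0.13, -0.67 and -0.12 on arrays 1, 2 and 3, or -0.44, -1.36 and -0.73 relative to the most repeated value. Its arrays lay on both sides of the array median, with a mean of -0.22 ± 0.35 (SE, n = 3 arrays, 95% interval -1.21 to 0.78, limma adjusted p = 0.706). Feature 42485 was steady at 0.70, 0.53 and 0.33. Feature 16525 had -0.43, -4.17 and 0.50, of which the value on array 2 was the lowest of any kept member feature. Feature 44778 had 1.63 on array 2 and -1.20 on array 3. ANK2, the ankyrin of heart and brain, was measured by 1 feature at 0.15, -1.52 and -2.08, or -0.42, -2.21 and -2.69 relative to the most repeated value. Array 1 was at the array median and the other arrays were below it. The mean was -1.15 ± 0.57 (SE, 95% interval -2.78 to 0.48, limma adjusted p = 0.351), and it was -1.80 without array 1 and -0.68 without array 3.

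RANBP9, a scaffold of the CTLH ubiquitin ligase that also binds obscurin in muscle, was the member nearest the array median. Its gene means were 0.26, 0.06 and -0.74 on arrays 1, 2 and 3, or -0.32, -0.63 and -1.35 relative to the most repeated value. The arrays lay on both sides of the array median, with array 3 lowest, and averaged -0.14 ± 0.38 (SE, n = 3 arrays, 95% interval -1.22 to 0.93, limma adjusted p = 0.819). Its 3 features disagreed. Feature 12947 had 1.32, 1.18 and -2.98, feature 24437 had -0.43, -2.19 and 0.19, and feature 36602 had -0.11, 1.19 and 0.56. No feature of RANBP9 kept its side of the array median on all arrays.

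OBSL1, obscurin-like 1, a smaller relative of obscurin that also works with the cullin CUL7, had 1 feature with a value on array 1 alone, -1.67, or -2.25 relative to the most repeated value. With 1 value on 3 arrays it was left out of every test.

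**Figure D4:**
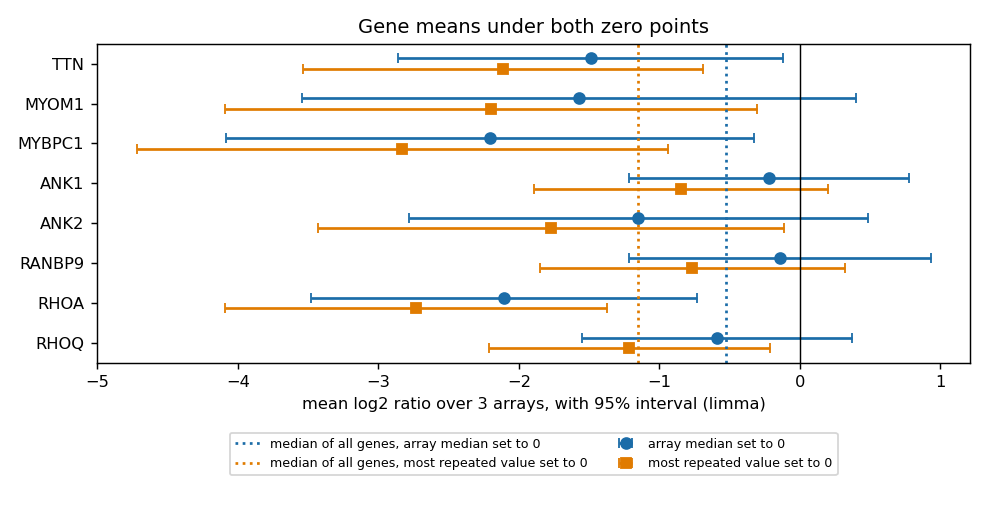
Mean log2 ratio over 3 arrays (x axis) of the 8 tested genes with limma 95% intervals, with the array median as zero in blue circles and the most repeated value as zero in orange squares. Dotted lines mark the median of all 16898 genes, -0.53 and -1.15; RHOA and MYBPC1 lie farthest to the left and RANBP9 and ANK1 nearest to 0.

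Across the 8 genes, 8 of 8 means were below the array medians, but so were 64.7% of all genes tested. The median of the members' means was -1.32 against -0.53 for all genes, and -1.94 against -1.15 relative to the most repeated value. Without array 1, 2 or 3 it was -1.32, -0.98 and -1.19, against -0.57, -0.62 and -0.60. With features measured on all 3 arrays it was -1.15 against -0.67. Values read 170 features earlier, which the annotation does not assign to the members, gave -1.0014 against -0.5485. The members' median was thus the lower one at that place too. Whether the members differ from all genes was not tested. Genes below the array median on every array, by however little, numbered 5 of 8 (RHOA, RHOQ, TTN, MYOM1 and MYBPC1), against 32.6% of all genes. Above it on every array were 0 of 8, against 21.0%. The 8 members had values on 3 arrays, whereas the shares of all genes include genes with values on 2 arrays only. Below the most repeated value on every array were 8 of 8 members and 61.6% of all genes. The order of means from the lowest was MYBPC1, RHOA, MYOM1, TTN, ANK2, RHOQ, ANK1 and RANBP9, which would run from the highest if the ratio were control over obscurin shRNA. Their 95% intervals overlapped between all neighbours in that order. Differences between the genes were not tested.

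By limma, 0 of 8 members passed the adjusted threshold with the array median as zero, as did 0% of all 16898 genes in either direction. At an unadjusted p under 0.05 there were 3 members on the lower side (RHOA, TTN and MYBPC1), against 20.3% of all genes, and 0 on the upper, against 0.888%. With the most repeated value as zero, 0 of 8 members passed the adjusted threshold, RHOA being nearest at 0.0523, while 9.23% of all genes passed on the lower side and 0.0118% on the upper. At an unadjusted p under 0.05 there were then 6 members on the lower side, against 31.2% of all genes, and 0 on the upper, against 0.142%. Data were simulated with the spread between arrays under the array median as zero, all but 200 genes being centred on 0. The test recovered 0 of the 200 genes moved by 4 log2 units. The count of 0 at that zero point thus does not show that these genes were unaffected. The setting with the most repeated value as zero was not simulated.

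The place of the members' values within the distribution of each array is given as a description, with no test. Of the members' 72 values, 18 (25.0%) were within 0.5 of the most repeated value of their array, against 37.0% of the values of all named features. Below 0 as deposited, where a broader peak of the distribution sits, were 38 (52.8%), against 34.8%. RHOA made up 22 of these 38 values. Features below the array median on every array that measured them numbered 12 of 27, against 29.3% of all named features. Most of these 12 were features of RHOA, which share the same hybridised RNA. Features above the array median on every such array numbered 5, against 27.5%. Those below the most repeated value on every such array numbered 18, against 58.4%.

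**Figure D5:**
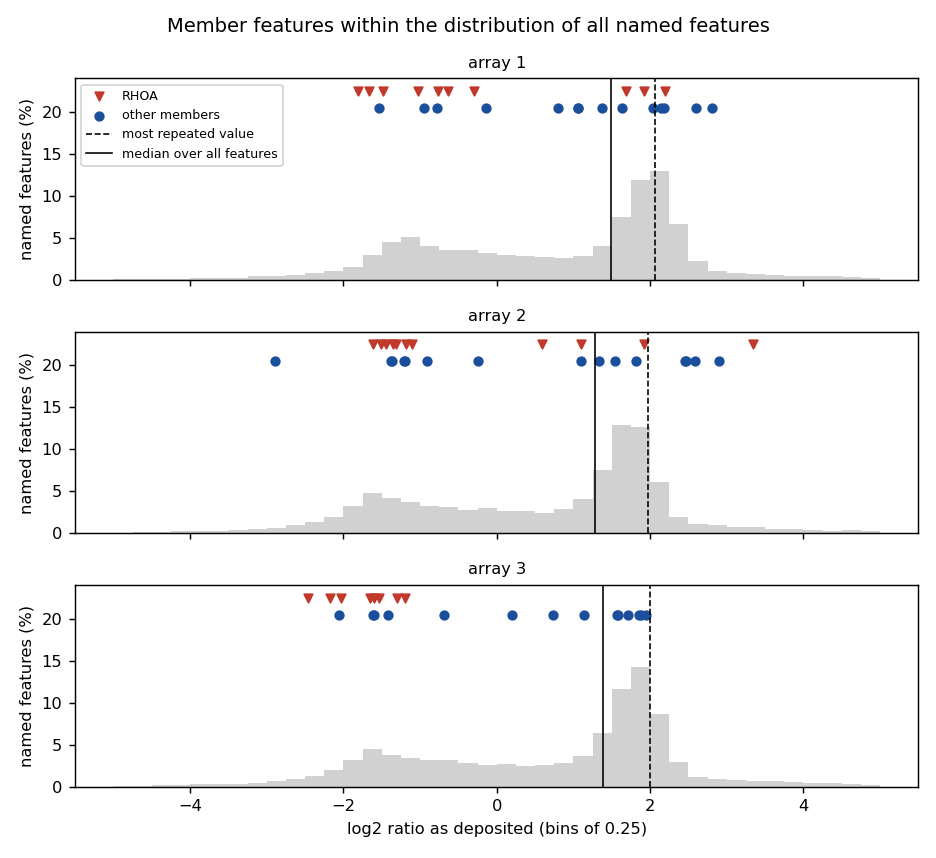
Share of named features in percent (y axis) by log2 ratio as deposited (x axis, bins of 0.25 from -5 to 5), 1 panel per array, with the kept features of RHOA (red triangles) and of the other members (blue circles) drawn above at an arbitrary height. The dashed line is the most repeated value and the solid line the array median; on array 3 all 8 RHOA features lie in the broad lower peak, between -2.46 and -1.20.

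Other genes around the members were counted in fixed lists. Of 92 genes in 7 lists, 78 were tested; 58 had means below the array medians and 20 above, and 0 passed the adjusted threshold by limma in either direction. With the most repeated value as zero, 9 of the 78 (11.5%) passed on the lower side and 0 on the upper, beside the 9.23% and 0.0118% of all genes. These shares apply beside each list below, as do the 64.7% of all genes with means below the array medians and their median of -0.53.

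Among sarcomeric relatives and neighbours of obscurin, 13 of 14 genes were tested, 8 with means below the array medians and 5 above, beside 64.7% below over all genes. The median mean was -0.12 against -0.53 for all genes. It was -1.49 over the 10 genes left without array 2 and -1.50 over the 11 left without array 3, against -0.62 and -0.60 for all genes. With features measured on all 3 arrays it was -1.34 over 10 genes, against -0.67 for all genes. Its place relative to all genes thus changed with the genes and features kept. The muscle protease CAPN3, which binds titin, had -3.30, -4.33 and -2.33 on arrays 1, 2 and 3, and MYBPH, a small relative of myosin-binding protein C, had -1.68, -4.38 and -4.11. Both were low on every array. The Z-disc proteins LDB3, at a mean of 0.72, and ACTN2, at 0.66, were above the array median on all 3 arrays. When the most repeated value was the zero, 3 genes passed on the lower side, CAPN3 (limma adjusted p = 0.039) being 1 of them.

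Among ankyrins, spectrins and other membrane skeleton genes, 12 of 14 were tested, of which 9 had low and 3 high means relative to the array medians. Over all genes 64.7% of means were below. The median mean was -1.46, against -0.53 for all genes. The spectrin-actin linker ADD1 had -1.92, -3.03 and -2.30 on arrays 1, 2 and 3 and the actin bundler DMTN had -2.04, -2.28 and -1.28, both low throughout. The beta spectrins SPTBN1, at a mean of 0.85, and SPTBN4, at 0.69, lay above the array median on all 3 arrays. Of this list 3 genes passed on the lower side with the most repeated value as zero, beside 9.23% of all genes. ADD1 (limma adjusted p = 0.0385) and DMTN (0.0463) were among them. Whether the list differs from all genes was not tested.

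Other GTPases of the family of RHOA and RHOQ lay on both sides of the array medians. Of 16 genes 14 were tested, with 11 means under the array medians, 3 over them and a median mean of -0.69, which was -0.26 over the 13 left without array 1. Below the array median on every array with a value were 2 of the 14, against 32.6% of all genes. RHOC, the closest relative of RHOA in this list with all arrays measured, had -2.53, -0.89 and -1.47 on arrays 1, 2 and 3. RHOH, a GTPase of blood cells, had a mean of -0.23, RHOJ, a relative of RHOQ, 0.48, and RND2, a GTPase that stays bound to GTP, 1.11. Under either zero point 0 genes of the list passed by limma. Whether RHOA differed from its relatives was not tested.

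Effectors and regulators of RHOA included 19 tested genes of 23, with 14 means below the array medians and 5 above, and a median mean of -0.77. Of these, 10 genes (52.6%) were below the array median on every array with a value, against 32.6% of all genes. The median was -1.42 over the 15 genes left without array 3. MYL9, a regulatory light chain of non-muscle and smooth muscle myosin, had -1.66, -2.80 and -3.07 on arrays 1, 2 and 3, and the GTPase-activating protein ARHGAP1 had -2.21, -2.73 and -1.60. LIMK2, a kinase that acts on cofilin downstream of ROCK, had a mean of 0.67 with 3 of 3 arrays above the array median. Of this list, 2 genes passed with the most repeated value as zero, both on the lower side: MYL9 (limma adjusted p = 0.0418) and ARHGAP1 (0.0416).

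Of the genes of the CTLH ligase around RANBP9 with RAN, the small GTPase of nuclear transport, 10 of 11 were tested. Of their means 8 were under the array medians and 2 over them, and the median mean was -0.35. RAN had -3.61, -2.80 and -1.53 on arrays 1, 2 and 3, and MKLN1, a CTLH subunit, had -2.45, -1.14 and -0.59. RAN was the 1 gene of this list past the threshold with the most repeated value as zero (limma adjusted p = 0.0489).

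The partners of OBSL1 in the CUL7 ligase were 5 genes, all tested and all with means below the array medians, against 64.7% of all genes, CUL7 itself at -0.03 only. The median mean of -1.31 became -3.42 over the 3 genes left without array 1. FBXW8, its substrate receptor, had -0.58, -4.79 and -1.19 on arrays 1, 2 and 3 and SKP1, the adaptor, -0.24, -3.63 and -1.72, so that array 2 was the lowest for both. Without array 2 their means were -0.88 and -0.98. Of 9 further partners of obscurin or of its complexes 5 were tested, with a median mean of -0.29. This median turned to 0.62 over the 4 genes left without array 1 and to 0.51 without array 2. With features measured on all 3 arrays it was 0.56 over 4 genes. The cullin CUL3 had a mean of 1.00 and KCTD6, which links small ankyrin 1 to CUL3, 0.62, both above the array median on all 3 arrays. ATP1B1, a sodium pump subunit, had a mean of -1.13, with -0.76, -1.62 and -1.03 on arrays 1, 2 and 3. It was 0.47 with features measured on all 3 arrays only. Without array 2 it was 0.51, where features that lacked array 1 or 3 were dropped too. Under either zero point 0 genes of both lists passed by limma.

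Marker genes gave no call with the array median as zero. Of 7 basal mammary markers 4 were tested, with 2 means above and 2 below the array medians and list medians of -0.67, -1.45 and -1.09 on arrays 1, 2 and 3. Of 8 striated muscle markers 7 were tested, with 4 means above and 3 below and list medians of 0.27, 0.15 and 0.45. Set to 0 at the most repeated value, 2 of 7 muscle markers and 0 of 4 basal markers passed on the lower side, beside 9.23% of all genes. The part of either cell type's RNA in the members' ratios was not tested.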

How the data were processed

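Gene expression was measured on 3 two-colour arrays. Per the labels, channel 1 (Cy5) held cells with obscurin shRNA and channel 2 (Cy3) cells with control shRNA, and 10 ug of RNA was reverse transcribed for each. The deposited values are log2 ratios, 1 per feature and array. The base was read from the values, since the highest value lies 16.61 above the most repeated one on each array (log2 of a limit on the ratio). The labels name no scanner, normalization, centring or direction of the ratio, and without channel intensities no filter on dim features was made.

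Of 45220 features, 31332 had 1 symbol in the platform annotation, 93 several and 13795 none. Symbols were updated by Entrez identifier through the GRCh38.p14 RefSeq table (31291 matched, 0 changed). On each array 35502 to 36065 features had a value. Each array was set to 0 at its median over all features. Features with 1 symbol and a value on at least 2 arrays (27303) were averaged per gene on each array, giving 16898 genes, 12403 of them complete on all 3 arrays. Gene means were compared with 0 in limma 3.58.1 under R 4.3.3, by lmFit on an intercept and eBayes, two-sided, with Benjamini-Hochberg adjustment over all genes and a threshold of 0.05. The number of arrays limits the precision. An exact sign-flip test over 3 arrays cannot go below p = 0.25 and was not used.

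The test was checked on simulated data with 16898 genes, 200 of them moved. With the real spread it recovered 0 moved by 1, 0 by 2 and 0 by 4 log2 units. With an SD of 0.3 it recovered 196, 200 and 200, with 21, 3 and 8 false calls.

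The members and gene lists were chosen with earlier results of these data known. Every member was named; of each list, the 2 highest and 2 lowest means among genes with the same sign on all 3 arrays. Genes of the closest pattern were those with the smallest root mean square difference from TTN, the first member with values on all arrays. Other zero points, scalings, filters, summaries, tests, a displacement of 170 features and leaving out each array were tried. No protein or probe sequences were used here. The RNA of the shRNA target itself is not reported here.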

Additional observations from a re-analysis of the deposited data

How the results depend on the processing

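The number of genes past the threshold, 0 above and 0 below, depended on the zero point and on the filter for missing values. It became 2 above and 1560 below with each array's most repeated value as zero, 4 above and 1182 below with features measured on all 3 arrays (11809 genes tested), and 0 above and 2 below with a 1-sample test without moderation. It stayed at 0 above and 0 below with values as deposited, the median over tested genes as zero, equal median absolute deviations, quantile normalization, the median of features, the highest values left out, robust eBayes, values 1 feature row earlier, each feature on its own, and without any 1 array (0 to 0). Without adjustment, 150 genes above and 3423 below had a p under 0.05. Data simulated with the spread under the array median as zero gave 0 calls too, so these zeros say nothing about stability. The other settings were not simulated. With the array median over all features as zero, the median of all tested genes was -0.53.

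Of 112 repeats of the members' means, 98 kept their direction and their side of the threshold, 2 passed it and 12 turned over. Values as deposited and the median over tested genes as zero differ from the main setting only by a shift, the same for every member. Turns in either setting follow from that shift. The cause of the other turns was not tested. RHOA (adjusted p = 0.0408) and TTN (0.0377) passed with features on all 3 arrays, where only the features that lacked an array were dropped. Over the other settings the adjusted p of RHOA ran from 0.0523 to 0.355, and without 1 array its mean ran from -2.76 to -1.55. Means without 1 array also lost the features that lacked either of the other arrays. As deposited, ANK1 was 1.17, ANK2 0.24, RANBP9 1.24 and RHOQ 0.79. With the median over tested genes as zero, ANK1 was 0.14 and RANBP9 0.22, and with the median of features 0.33 and 0.42. Without array 2 ANK1 was 0.27, with only features 16525 and 42485 left, and it ran from -0.84 to 0.27. Without array 3 RANBP9 was 0.16, and it ran from -0.34 to 0.16. Values 1 feature row earlier gave 0.55 for TTN and 0.58 for ANK2.

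Among list genes, 16 of 307 repeats turned over. Values 1 feature row earlier gave -2.53 for LDB3, 0.61 for MYBPH, 1.05 for CAPN3, -1.69 for SPTBN1, -0.19 for SPTBN4, -0.12 for LIMK2, 0.77 for MYL9 and 0.79 for ATP1B1. With the most repeated value as zero RHOJ was -0.14 and KCTD6 -0.0067. RHOH was 1.15 as deposited, 0.13 with the median over tested genes as zero and 0.35 with the median of features. ATP1B1 was 0.25 as deposited, 0.47 with features on all 3 arrays and 0.51 without array 2, running from -1.05 to 0.51 without 1 array. The value of 0.51 was with features that lacked array 1 or 3 dropped. List medians also moved, in part because fewer genes of a list then have values: with features on all 3 arrays the sarcomeric relatives were at -1.34 (10 genes) and the further partners at 0.56 (4 genes), and the latter at 0.21 with the median of features. Without 1 array the basal markers ran from -2.06 to -0.80 and the muscle markers from -0.40 to 0.42. Each ratio is already the difference between both shRNAs on 1 array, so the test was paired by array throughout and no separate fit with a block was made.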
